A study of Bos taurus with 60 samples.

Results

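The miR-23, miR-27 and miR-24 family was described in the liver of 60 steers by its 7 mature miRNAs, bta-miR-23a, bta-miR-27a-3p, bta-miR-27a-5p, bta-miR-23b-3p, bta-miR-27b, bta-miR-24-3p and bta-miR-24. They were chosen by name out of 1030 mature bovine miRNAs listed in the files. The libraries came from 20 Angus, 20 Charolais and 20 Kinsella Composite (KC, a crossbred beef population) steers, 1 library per steer. Within each breed the labels place 6 steers in a low residual feed intake (RFI) group and 6 in a high-RFI group, and give no RFI group for the other 8. RFI is the difference between the feed an animal eats and the feed predicted from its growth and body weight, so a low-RFI steer is the more feed-efficient animal. All steers were castrated males on the same barley-based finishing diet, and the 60 steers descend from 23 sires, so that some share a father. By the study's account the mean age at slaughter was highest in Charolais and lowest in KC, so breed and age cannot be told apart in comparisons of breeds. The profiled steers were those with extreme RFI in each breed, and the authors drew the low- and high-RFI groups from them by extreme RFI and also by how alike a steer's miRNA levels were to those of its breed. The groups of 6, and with them the division into 36 steers with and 24 without an RFI group, were therefore chosen in part on the values compared here. Where breeds or steers are compared, p-values measure the spread between animals of which some are related. Nothing in the labels names a sequencing batch.

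MicroRNAs are short RNAs that pair through their seed (bases 2 to 8) with messenger RNAs and lower their output. The genes of this family lie in tandem, in a cluster with miR-23a, miR-27a and miR-24-2 and in a paralogous cluster with miR-23b, miR-27b and miR-24-1, and each hairpin can give a 5p and a 3p arm. In mammals miR-27 is known for repressing genes of adipogenesis and lipid metabolism, miR-23 for repressing glutaminase, and the clusters are active in vascular endothelium as well as in hepatocytes.

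In the RefSeq annotation of the ARS-UCD2.0 assembly, which is not the build of the files and is used here for gene order alone, MIR23A, MIR27A and MIR24-2 follow each other with no other miRNA gene between them and overlap the gene LOC132345691. MIR23B, MIR27B and MIR24-1 follow each other in the same way and overlap AOPEP, which encodes an aminopeptidase. The mature sequences, taken from the study's list of expressed miRNAs, are shown with the seed in capitals because the seed decides which members could share targets.
bta-miR-23a: aUCACAUUgccagggauuucca
bta-miR-23b-3p: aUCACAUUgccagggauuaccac
bta-miR-10174-3p: aUCACAUUgccagggauuaccacg
bta-miR-27a-3p: uUCACAGUggcuaaguuccg
bta-miR-27b: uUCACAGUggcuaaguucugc
bta-miR-24-3p: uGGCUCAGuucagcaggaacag
bta-miR-27a-5p: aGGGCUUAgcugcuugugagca
bta-miR-24: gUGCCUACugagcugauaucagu

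The miR-23 sequences share the seed UCACAUU and the miR-27 sequences share UCACAGU, whereas bta-miR-24-3p, bta-miR-27a-5p and bta-miR-24 each had a seed found in no other miRNA of that list. Counted from the 5′ end, bta-miR-27b differs from bta-miR-27a-3p by C19U and is 1 base longer. bta-miR-23b-3p differs from bta-miR-23a by U19A and is also 1 base longer. A read that ends before base 19 is therefore the same for both members of a pair, and how the counting split such reads was not tested. bta-miR-10174-3p is no member of the family by name, but it is bta-miR-23b-3p with 1 base (G) added at the 3′ end, and it is shown because a result for bta-miR-23b-3p turned on it. The name bta-miR-24 belongs to the 5p arm of bta-mir-24-1.

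A pair of libraries, both from steers without an RFI group, stood apart from the rest of their breed in the normalized levels of bta-miR-24-3p and bta-miR-23b-3p. Several breed results of these members are therefore also given for the 36 steers with an RFI group, which leave out both libraries. Where correlations are given without 2 steers, those are the 2 farthest from the median and need not be this pair. Other steers stood apart within their group for single members, among them low-RFI Angus replicate 6, which is described with the Angus values. Levels are CPM, counts scaled to a library of 1000000 counts after TMM normalization of library sizes. In 1 Charolais steer bta-miR-24-3p was 1316 CPM, 2.74 times the median of the other 19, and bta-miR-23b-3p was 847 CPM (1.88 times), whereas bta-miR-27a-3p, at 501 CPM (0.758 times), was the lowest of the breed. In 1 KC steer bta-miR-24-3p was 1058 CPM (1.91 times) and bta-miR-23b-3p was 922 CPM (1.53 times), with bta-miR-27a-3p at 615 CPM (0.882 times). Both were the deepest libraries of their breeds. There 3 counts were 0.728 and 0.558 CPM with TMM, but 0.498 and 0.444 CPM by the plain total. As a share of counts, both still had the highest bta-miR-24-3p of their breed (0.0901% and 0.0841%). For bta-miR-23b-3p the Charolais steer had 0.0580%, beside 0.0575% at most in high-RFI Charolais. The highest share in KC, 0.0735%, was in another steer. In the Charolais steer bta-miR-10b, a miRNA of the HOX gene clusters, was 24.1 times, bta-miR-7 7.29 times and bta-miR-10a 4.84 times the median of the others. In the KC steer bta-miR-7 was 5.07 times and bta-miR-10a 2.16 times. All of these were named after their values were seen.

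bta-miR-27b dominated the family. Its level was 28339 ± 2909 CPM (SD, n = 60), with a lowest value of 21769, a median of 28417 and a highest of 35555, and it was the 7th most abundant miRNA in each breed. It made up 93.6% ± 0.860 (SD, n = 60) of the counts of the 7 members, and the members together held 3.03% ± 0.356 (SD, n = 60) of a library. bta-miR-27a-3p, its near-identical partner from the other cluster, was far lower at 674 ± 67.1 CPM (SD, n = 60), between 476 and 804. The count of bta-miR-27b was 42.3 ± 4.62 times that of bta-miR-27a-3p (SD, n = 60), and no steer lay outside 35.9 to 61.3 times.

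The more abundant members with other seeds lay, like bta-miR-27a-3p, between bta-miR-27b and the minor arms. bta-miR-24-3p had 536 ± 145 CPM (SD, n = 60, from 377 to 1316), bta-miR-23b-3p had 534 ± 105 CPM (351 to 922) and bta-miR-23a had 175 ± 18.9 CPM (127 to 229). The order bta-miR-27b, bta-miR-27a-3p, bta-miR-24-3p or bta-miR-23b-3p, bta-miR-23a, and then the minor arms was nearly fixed. bta-miR-27b exceeded bta-miR-27a-3p, bta-miR-23b-3p exceeded bta-miR-23a and bta-miR-23a exceeded bta-miR-24 in 60 of 60 steers, and bta-miR-27a-3p exceeded bta-miR-24-3p in 55. The neighbours that could not be ordered were bta-miR-24-3p and bta-miR-23b-3p, where the former was higher in 31 of 60 steers (11 of 20 Angus, 15 of 20 Charolais and 5 of 20 KC). For bta-miR-23b-3p the KC values include the second listing described further on.

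The minor arms were near the limit of detection. bta-miR-24 had 2.08 ± 0.863 CPM (SD, n = 60, from 0.395 to 4.10) and bta-miR-27a-5p had 1.45 ± 0.761 CPM (SD, n = 60), and in 5 and 16 of the 60 steers, respectively, their counts were at or below 3. bta-miR-27a-5p had no count in 1 Charolais steer without an RFI group, whose library of 4627896 counts allows up to 0.632 CPM (3 counts). As a share of both arms, bta-miR-27a-5p made up 0.216% ± 0.116 (SD, n = 60) of the bta-miR-27a counts and bta-miR-24 made up 0.400% ± 0.180 (SD, n = 60) of the miR-24 counts. For bta-mir-27a the 3p arm was thus the main product in every steer. For miR-24 the share is relative to counts of bta-miR-24-3p, which both bta-mir-24-1 and bta-mir-24-2 can give, so the arm share of bta-mir-24-1 alone is not known. bta-miR-24 was higher than bta-miR-27a-5p in 43 of 60 steers, so their order was not fixed. The opposite arm of miR-23b, bta-miR-23b-5p, was rarer still, with 12 counts over all 60 libraries.

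**Figure D1:**
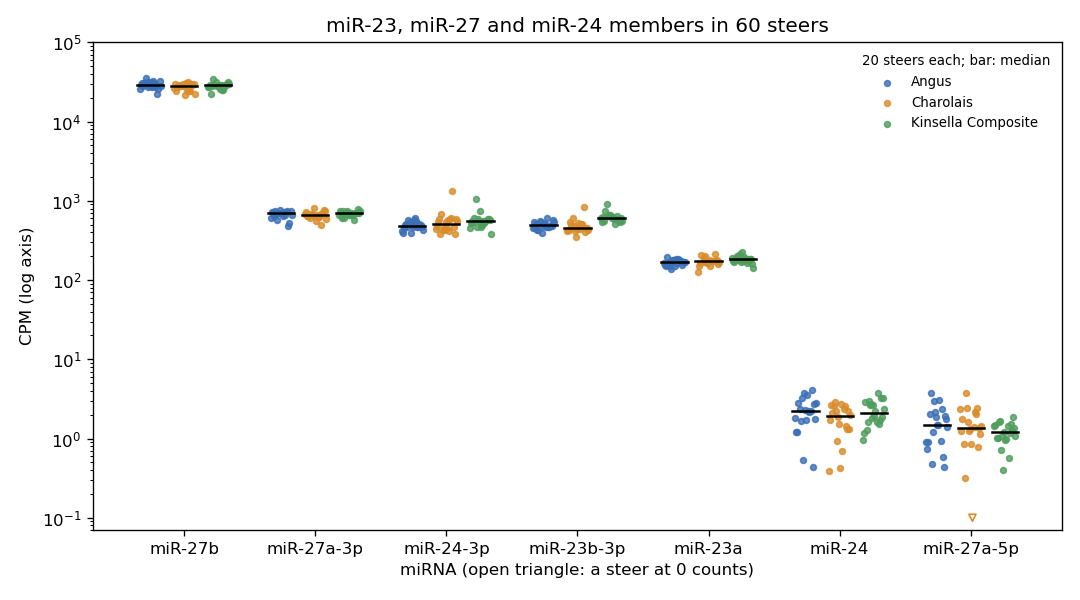
CPM (log axis) of the 7 members in each steer, 20 steers per breed; black bars are medians and the open triangle marks the steer with 0 counts of bta-miR-27a-5p. bta-miR-27b lies between 21769 and 35555 CPM in every steer and both minor arms lie at or below 4.10 CPM, with the other members between 127 and 1316 CPM.

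Which cluster a read of bta-miR-24-3p came from could not be told. The files list this miRNA with both hairpins, bta-mir-24-1 and bta-mir-24-2, and the count from the former was 1.003 ± 0.00131 times (SD, n = 60) that from the latter, as the same mature sequence lies in both. The mean of the 2 hairpins was used throughout. By contrast, bta-miR-23a, bta-miR-27a-3p, bta-miR-27a-5p, bta-miR-27b and bta-miR-24 are each listed with a single hairpin in every file. bta-miR-23b-3p is listed with bta-mir-23b in all files and, in the KC files only, also with bta-mir-10174.

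The breed difference of bta-miR-23b-3p rested on that second listing. With listed hairpins averaged, the level in KC was 622 ± 90.3 CPM (SD, n = 20), against 496 ± 53.5 in Angus and 483 ± 104 in Charolais (SD, n = 20 each). The log2 fold change was 0.33 (SE 0.07, edgeR adjusted p = 0.000295) for KC against Angus and 0.37 (SE 0.07, adjusted p = 3.4e-05) for KC against Charolais, and in the test over all breeds bta-miR-23b-3p was the 1 member of 7 with an adjusted p under 0.05. Of all miRNAs tested, 74 of 443 (16.7%) passed that test, with 10.8% for KC against Angus (6.77% higher in KC), 16.3% for KC against Charolais (9.26% higher in KC) and 1.35% for Charolais against Angus. In the 36 steers with an RFI group, which leaves out both libraries that stood apart, the log2 fold changes were 0.26 (adjusted p = 0.0256) and 0.32 (adjusted p = 0.00201). The fold changes of bta-miR-23b-3p, 1.255 and 1.289, were below 1.5. With the counts of listed hairpins summed in place of averaged, so that the second listing is added in KC, the log2 fold changes were 1.33 against Angus and 1.35 against Charolais.

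The count listed under bta-mir-10174 was exactly equal to the count of bta-miR-10174-3p in 20 of 20 KC steers, and the latter is present in the files of all breeds. The level of bta-miR-10174-3p was 739 ± 79.6 CPM for Angus, 693 ± 128 for Charolais and 742 ± 105 for KC (SD over 20 steers each). Its log2 fold change for KC against Angus was 0.00 (adjusted p = 0.977, the 95% interval being -0.12 to 0.13). Its count was 1.49 ± 0.0528 (Angus), 1.44 ± 0.0686 (Charolais) and 1.48 ± 0.0493 (KC) times that of bta-miR-23b-3p under bta-mir-23b (SD over 20 steers each). Both names are thus counted in all breeds in near-constant proportion, and they are averaged under bta-miR-23b-3p in KC only. With the bta-mir-10174 listing left out, a choice made after the data were seen, bta-miR-23b-3p had 503 ± 76.4 CPM in KC (SD, n = 20), and the log2 fold change was 0.02 (adjusted p = 0.907) against Angus and 0.06 (adjusted p = 0.696) against Charolais. The number of members with an adjusted p under 0.05 between breeds was then 0.

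**Figure D2:**
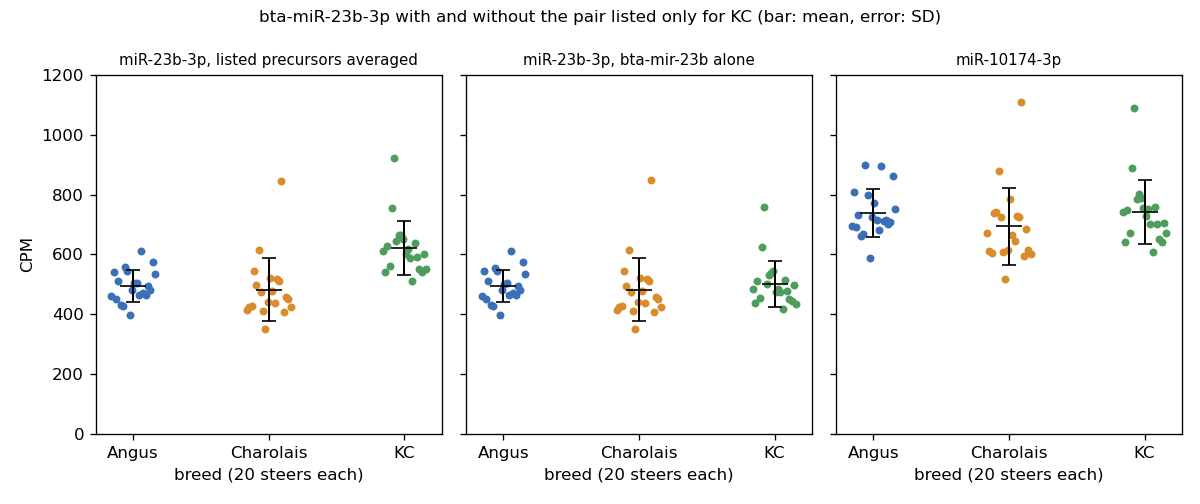
CPM per steer (points) with mean and SD in Angus, Charolais and KC (20 steers each) for bta-miR-23b-3p with listed hairpins averaged, for bta-miR-23b-3p under bta-mir-23b alone, and for bta-miR-10174-3p. The KC mean of 622 CPM in the left panel falls to 503 in the middle panel, near 496 in Angus and 483 in Charolais.

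The other 6 members had no adjusted p under 0.05 between breeds. bta-miR-27b stood at 29283 ± 3015 CPM for Angus, 27328 ± 2833 for Charolais and 28405 ± 2673 for KC (SD over 20 steers each), and bta-miR-27a-3p at 673 ± 76.5, 657 ± 69.3 and 691 ± 52.5. For the 95% interval of the log2 fold change, the widest bound of bta-miR-27b was -0.20 (Charolais against Angus, adjusted p = 0.255) and that of bta-miR-27a-3p was 0.17 (KC against Charolais, adjusted p = 0.393). bta-miR-23a (0.12, adjusted p = 0.104), bta-miR-24-3p (0.22, adjusted p = 0.135) and bta-miR-27a-5p (-0.49, adjusted p = 0.161) reached an unadjusted p under 0.05 for KC against Angus, as log2 fold changes, but not an adjusted one, as 25.3% of miRNAs reached an unadjusted p under 0.05 there. For Charolais against Angus bta-miR-27b was the 1 member to do so, beside 17.2% of miRNAs. In the 36 steers with an RFI group the log2 fold change of bta-miR-24-3p for KC against Angus was 0.08 (adjusted p = 0.668). KC libraries had the highest median total, with 5547018 counts against 3720336 in Angus and 4405876 in Charolais.

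In Angus, a minor arm, bta-miR-24, was lower in the low-RFI steers by the unadjusted rule of the study. Its level was 1.13 ± 0.542 CPM (SD, n = 6) in low-RFI steers, with a lowest value of 0.433, a median of 1.22 and a highest of 1.72. The high-RFI steers had 2.40 ± 0.618 CPM (SD, n = 6), with a lowest value of 1.79, a median of 2.23 and a highest of 3.60. Every low-RFI steer was below every high-RFI steer. The 8 Angus steers without an RFI group had 2.95 ± 0.742 CPM (SD, n = 8), from 1.79 to 4.10, and were also all above the low-RFI steers. These 8 were likewise profiled for their high or low RFI, so animals of low RFI are among them, though the labels do not say which. The low level was thus seen in the labelled low-RFI group and not in all profiled Angus steers of low RFI. Among the 373 miRNAs tested in Angus, the CPM of the RFI groups did not overlap for 1 (0.268%), which was bta-miR-24. The log2 fold change was -0.95 (SE 0.33, unadjusted p = 0.00984, adjusted p = 0.760 by edgeR), so that bta-miR-24 met that rule (unadjusted p under 0.05 and fold change above 1.5). Of 373 miRNAs 9 did so (2.41%), 3 of them lower in low RFI (0.804%), and 0 had an adjusted p under 0.05 while 14 had an unadjusted one (3.75%). bta-miR-24 was the 1 member to meet the rule by edgeR's quasi-likelihood test and by DESeq2, whereas edgeR's likelihood-ratio test gave 2 members, bta-miR-24 and bta-miR-27a-5p.

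The reads behind this call were few. The counts of bta-miR-24 were 5, 4, 7, 2, 7 and 1 in the low-RFI steers and 9, 12, 11, 7, 13 and 8 in the high-RFI steers, and 3 counts correspond to 0.710 to 1.30 CPM in the former. The low-RFI libraries held 2479723 to 4151913 counts and the high-RFI libraries 3174687 to 5703119. In 1 random draw that thinned all libraries to an equal total of 1930856 counts, the log2 fold change was -0.51 (unadjusted p = 0.311, adjusted p = 0.959 by edgeR). A single draw from so few counts adds noise of its own, and the part of depth was not tested. With sire as a block, and counts not thinned, the log2 fold change was -2.29 (unadjusted p = 0.00524, adjusted p = 0.710 by edgeR). Only sires with steers in both RFI groups inform that estimate, so it rests on few steers near the floor. In the Angus families of 6 and 5 steers the lowest values were 0.433 and 0.540 CPM. They came from low-RFI replicates 6 and 4, with 1 and 2 counts. bta-miR-24-3p, the 3p arm listed with both miR-24 hairpins, had a log2 fold change of -0.13 (95% interval -0.32 to 0.05, adjusted p = 0.970). The within-steer log2 ratio of bta-miR-24-3p to bta-miR-24, which needs no normalization between libraries, was 8.65 ± 0.784 in low-RFI and 7.74 ± 0.274 in high-RFI Angus (SD, n = 6 each), with a two-sided exact permutation p of 0.00433 and an adjusted p of 0.104 over 24 tests.

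The other minor arm, bta-miR-27a-5p, lay in the same direction in Angus, and whether it met the rule depended on the test and the filter. It did not by the quasi-likelihood test, but it did by the likelihood-ratio test (log2 fold change -0.88, unadjusted p = 0.0407, adjusted p = 0.983 by edgeR) and with no filter on low counts (-0.92, unadjusted p = 0.0435, adjusted p = 0.816 by edgeR). bta-miR-27a-5p was at 1.164 ± 0.961 CPM (SD, n = 6) in low-RFI steers, from 0.433 to 2.97 with a median of 0.820. In high-RFI steers it was at 2.23 ± 1.03 CPM (SD, n = 6), from 0.940 to 3.71 with a median of 2.08, and the log2 fold change by the quasi-likelihood test was -0.89 (SE 0.44, unadjusted p = 0.0583, adjusted p = 0.970). The groups overlapped, as the highest low-RFI steer stood above 4 of the 6 high-RFI steers, and 4 of 6 low-RFI and 1 of 6 high-RFI libraries had 3 or fewer counts. Without that low-RFI steer (replicate 4) the log2 fold change was -1.39 (adjusted p = 0.951) and met the rule, and without high-RFI replicate 2 or 4 it met the rule as well. In the 1 draw of thinned counts bta-miR-27a-5p met the rule (log2 fold change -1.09) and bta-miR-24 did not. The 5 other members had log2 fold changes in Angus between -0.13 and -0.01, and for bta-miR-27b, the principal member, the 95% interval was -0.20 to 0.17. Low-RFI Angus replicate 6, the shallowest of these 12 libraries, was the lowest low-RFI steer for bta-miR-27b (22416 CPM) and bta-miR-27a-3p (476 CPM). Without it the log2 fold change of bta-miR-27b went from -0.01 to 0.03 and that of bta-miR-27a-3p from -0.05 to 0.00, so the sign of neither is settled.

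**Figure D3:**
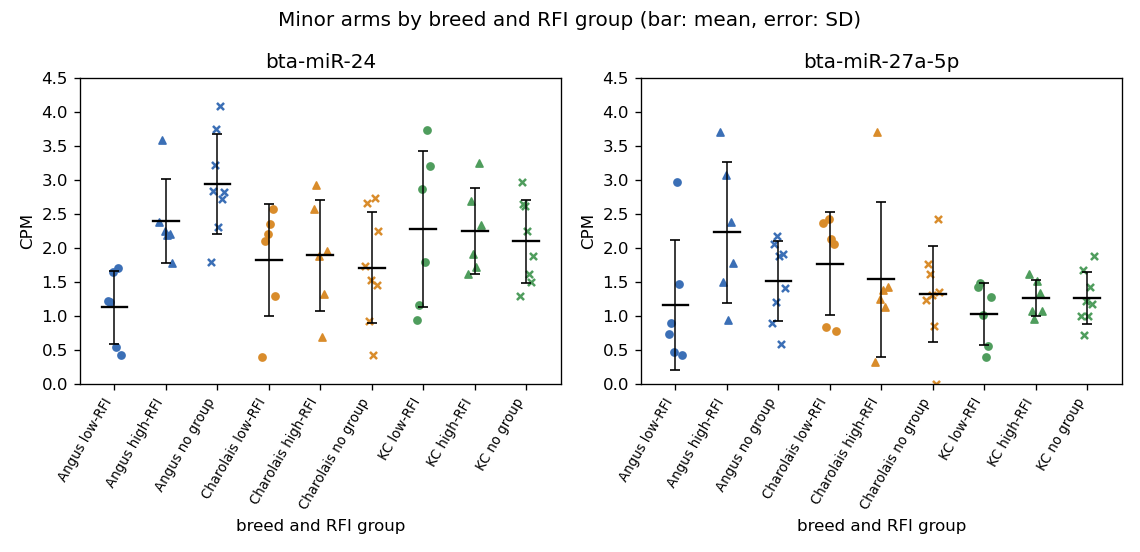
CPM of bta-miR-24 and bta-miR-27a-5p per steer by breed and RFI group (6 low-RFI, 6 high-RFI and 8 without a group per breed; bars are means, error bars SD). For bta-miR-24 the 6 Angus low-RFI steers lie at or below 1.72 CPM and the 6 high-RFI steers at or above 1.79, whereas the groups of Charolais and KC overlap.

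In Charolais and KC no member met the rule for RFI. There, 7 of 373 (1.88%) and 7 of 385 (1.82%) miRNAs met it, and the number of members with an unadjusted p under 0.05 was 0 by edgeR and 0 by DESeq2 in each breed, beside 5.09% of all miRNAs in Charolais and 3.64% in KC. For bta-miR-24 the Charolais groups were at 1.83 ± 0.825 CPM (low RFI) and 1.90 ± 0.813 CPM (high RFI), and the KC groups at 2.29 ± 1.15 and 2.26 ± 0.633 CPM (SD, n = 6 each), with log2 fold changes of 0.03 (95% interval -0.73 to 0.79) and 0.06 (-0.63 to 0.75). A fit that also held sire as a block gave bta-miR-24 a log2 fold change of -2.24 in Charolais (SE 1.19, 95% interval -4.80 to 0.31, unadjusted p = 0.0803, adjusted p = 0.434 by edgeR) and of -0.18 in KC (SE 0.485, adjusted p = 0.998). The interaction of RFI with breed had an unadjusted p of 0.0867 for bta-miR-24 (adjusted p = 0.994), so that a difference between breeds in the effect of RFI was not shown. Among all 426 miRNAs tested for the interaction 0 had an adjusted p under 0.05 (0%) by edgeR and 16 an unadjusted one (3.76%), with 1 miRNA, no member, at an adjusted p under 0.05 by DESeq2.

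The most abundant member did not meet the rule in any breed. bta-miR-27b had 27896 ± 2350 CPM in low-RFI and 27244 ± 3311 in high-RFI Charolais, and 27513 ± 1301 and 29904 ± 1412 in KC (SD, n = 6 each). In KC 5 of 6 high-RFI steers were above every low-RFI steer, but the log2 fold change was -0.09 (95% interval -0.21 to 0.03, adjusted p = 0.966). Across the breeds no member met the rule (3 of 426 miRNAs did, 0.704%), no member had an unadjusted p under 0.05 by edgeR or DESeq2 (3.05% of miRNAs did by edgeR), and the median log2 fold change of the 7 members was -0.05 against -0.02 for all miRNAs tested. Of 24 tests of RFI on within-steer ratios between members, 0 had an adjusted p under 0.05, the smallest being 0.104.

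The ratios between breeds changed with the extra KC listing. Of 24 ratio tests, 5 had an adjusted p under 0.05, and 4 of them held bta-miR-23b-3p. The ratio of bta-miR-27b to its cluster partner bta-miR-23b-3p averaged 59.6 ± 7.69 for Angus, 58.7 ± 12.2 for Charolais and 46.2 ± 5.44 for KC (SD over 20 steers each). The permutation p for KC against Angus was 1e-05, the smallest the resamples can give (adjusted p = 0.00024). With bta-mir-23b alone the ratio in KC was 57.3 ± 6.92 (SD, n = 20). The ratio of bta-miR-27b to bta-miR-24-3p was 60.5 ± 7.69 in Angus and 51.5 ± 9.77 in KC (SD, n = 20 each), a log2 difference of -0.25 (permutation p = 0.00213, adjusted p = 0.0102). That adjusted p became 0.0511 once the bta-mir-10174 listing was left out, since the other tests of the family changed, and 0 of 24 tests then passed. In the 36 steers with an RFI group, without the libraries that stood apart, the log2 difference was -0.14 (adjusted p = 0.321).

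Over the 60 steers, the members with the same seed varied together. Of the 21 pairs of members, after centring log2 CPM on each breed's mean, 5 had an adjusted p under 0.05 for Spearman's rho (permutation within breeds). The highest was bta-miR-23b-3p with bta-miR-23a (rho 0.48, adjusted p = 0.00399, Pearson's r 0.49, adjusted p = 0.00245). bta-miR-27b with bta-miR-27a-3p followed (rho 0.44, adjusted p = 0.00553, r 0.53, adjusted p = 0.000315). The miR-23 and miR-27 members that share a cluster had values nearer 0, although the difference between the pairs was not tested. bta-miR-27a-3p with bta-miR-23a had rho -0.21 (adjusted p = 0.240, r -0.17, adjusted p = 0.357), and bta-miR-27b with bta-miR-23b-3p had rho 0.11 (adjusted p = 0.535, r 0.10, adjusted p = 0.597).

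The pairs with a common seed kept their sign in each breed. For bta-miR-23b-3p with bta-miR-23a, rho within Angus, Charolais and KC was 0.31, 0.68 and 0.54, and without the 2 steers farthest from the median r was 0.40. For bta-miR-27b with bta-miR-27a-3p, rho was 0.36, 0.60 and 0.33, and r without the 2 farthest steers was 0.41. Because these partners differ at base 19 and at the 3′ end alone, reads counted under both names could add to these values, which was not tested. Steers with a common sire are not independent, and the pairs of 212 miRNAs with a mean of at least 10 CPM had a median rho of 0.01, with 80% of them between -0.26 and 0.28 (the 10th and 90th percentiles). The same-seed partner was not always the nearest of 211 miRNAs by rho. bta-miR-23b-3p was 1st for bta-miR-23a, but bta-miR-23a was 4th for bta-miR-23b-3p. bta-miR-27a-3p was 3rd for bta-miR-27b, and bta-miR-27b was 6th for bta-miR-27a-3p.

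**Figure D4:**
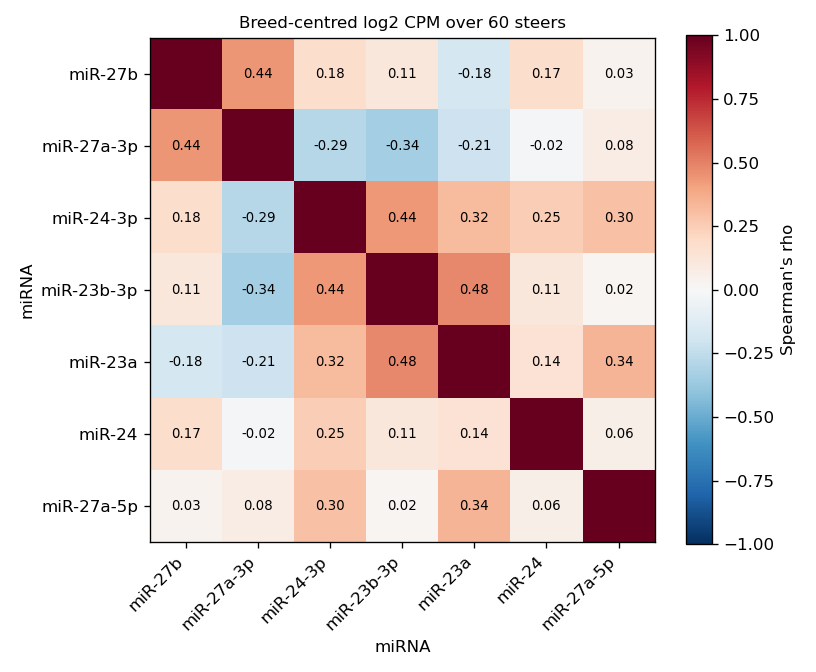
Spearman's rho between the 7 members over 60 steers, from log2 CPM centred within each breed. Positive pairs include bta-miR-23b-3p with bta-miR-23a (0.48) and bta-miR-27b with bta-miR-27a-3p (0.44), while bta-miR-27a-3p is negative with bta-miR-24-3p (-0.29), bta-miR-23b-3p (-0.34) and bta-miR-23a (-0.21).

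bta-miR-24-3p and bta-miR-23b-3p were also related (rho 0.44, adjusted p = 0.00553, r 0.68, adjusted p = 0.000315), and bta-miR-27a-3p went the other way from bta-miR-23b-3p (rho -0.34, adjusted p = 0.0389, r -0.44, adjusted p = 0.00278). Without the 2 steers farthest from the median, rho of the first pair was 0.34 (adjusted p = 0.0615) and r was 0.39, and rho of the second pair was -0.31 (adjusted p = 0.0825) and r was -0.35, so that neither relation kept its adjusted p without those steers. Within breeds rho of the first pair was 0.33, 0.53 and 0.41, and that of the second -0.27, -0.53 and -0.18, in Angus, Charolais and KC. The fifth pair, bta-miR-23a with bta-miR-27a-5p (rho 0.34, adjusted p = 0.0389, r 0.27, adjusted p = 0.127), involves the sparse minor arm and is given as a value alone.

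**Figure D5:**
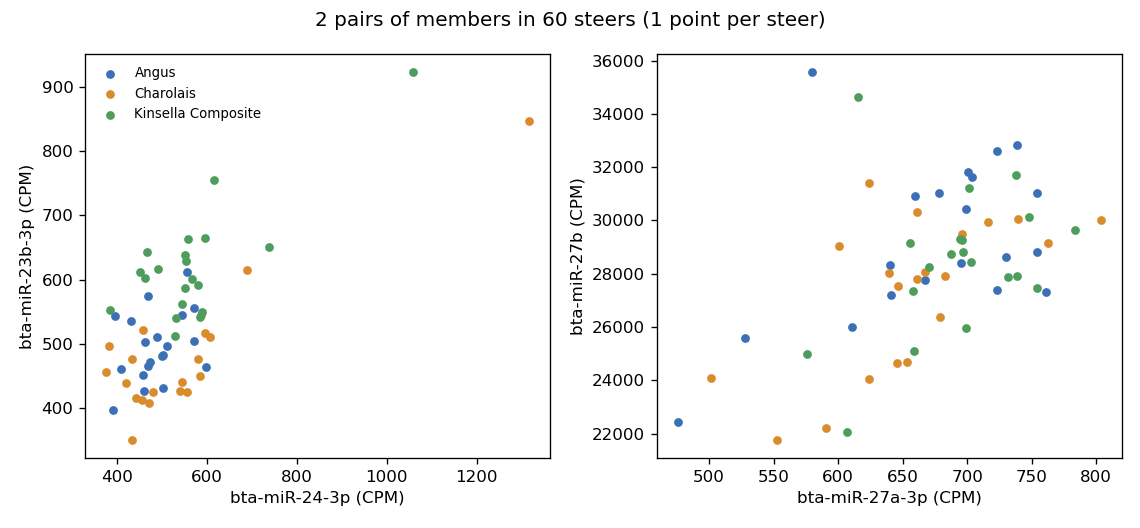
CPM of bta-miR-23b-3p against bta-miR-24-3p and of bta-miR-27b against bta-miR-27a-3p, 1 point per steer, coloured by breed. The left panel has 2 points apart from the rest, at 1316 and 1058 CPM of bta-miR-24-3p.

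For the pairs of a 5p and a 3p arm no adjusted p was under 0.05. bta-miR-27a-3p with bta-miR-27a-5p had rho 0.08 (adjusted p = 0.698, r 0.07, adjusted p = 0.692) and bta-miR-24-3p with bta-miR-24 had rho 0.25 (adjusted p = 0.144, r 0.16, adjusted p = 0.379). The counts of the minor arms, at most 20 in a steer, limit what such a value can show.

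Among 207 miRNAs outside the family, those most like each abundant member over the 60 steers were found by Spearman's rho, as a description. bta-miR-23b-3p was closest to bta-miR-10174-3p (rho 0.95), followed by bta-miR-26a (0.49) and bta-miR-361 (0.49). In KC the level of bta-miR-23b-3p is an average that includes the count of bta-miR-10174-3p, so that first value was partly set in advance. bta-miR-27a-3p was closest to bta-miR-16b (0.57), bta-miR-15a (0.56) and bta-miR-29c (0.50), all higher than its value with any member. For bta-miR-27b these were bta-miR-1468 (0.50), bta-let-7f (0.46) and bta-miR-22-3p (0.43). The nearest to bta-miR-24-3p were bta-miR-374a (0.71), bta-miR-99b (0.65) and bta-miR-10a (0.64), all higher than its value with any member. These values include the libraries that stood apart for bta-miR-24-3p, where bta-miR-10a was 4.84 and 2.16 times the median of the others. The search was not repeated without them. bta-miR-23a was closest to bta-miR-409a (0.47), bta-miR-10174-3p (0.45) and bta-miR-183 (0.41). The minor arms had no miRNA above 0.39, with bta-miR-374b (0.39), bta-miR-26a (0.35) and bta-miR-664b (0.31) nearest to bta-miR-24, and bta-miR-146a (0.35), bta-miR-98 (0.34) and bta-miR-1388-5p (0.32) nearest to bta-miR-27a-5p.

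Since the liver samples hold several cell types, fewer cells of a type and less RNA per cell cannot be told apart in these values. The hepatocyte markers bta-miR-122, bta-miR-192, bta-miR-194, bta-miR-215 and bta-miR-885 were present in all steers and summed to 180001 to 368196 CPM in Angus, 212702 to 308365 in Charolais and 207809 to 271688 in KC. The endothelial markers bta-miR-126-3p and bta-miR-126-5p summed to 14483 to 18472 CPM in low-RFI and 15350 to 18105 in high-RFI Angus, and 0 of 2 met the rule for RFI in any breed or differed between breeds. Of the muscle markers, bta-miR-206, bta-miR-208a and bta-miR-208b were at 0 in 57, 58 and 55 steers. In Angus none of the hepatocyte, endothelial, erythroid, leukocyte, mesenchymal, biliary or muscle markers tested met the rule for RFI. In Charolais bta-miR-133a (1 of 2 muscle markers tested) and in KC bta-miR-223 (1 of 7 leukocyte markers) met it, higher in low RFI, with adjusted p = 0.752 and 0.646. An unadjusted p under 0.05 by edgeR, whatever the fold change, was more common. It was reached by 4 of 7 leukocyte markers in KC (3.64% of all miRNAs) and 3 of 5 hepatocyte markers in Charolais (5.09% of all miRNAs). The median log2 fold change of the 7 leukocyte markers in KC was 0.26. The 5 hepatocyte markers in Charolais did not share a direction, with a median of -0.16 but bta-miR-122 at 0.32 (unadjusted p = 0.0245 by edgeR). In Charolais 1 of 5 biliary and 1 of 2 muscle markers and in Angus 1 of 7 leukocyte markers also reached it. Between breeds, 2 of 5 hepatocyte markers (bta-miR-215 and bta-miR-885) and 2 of 7 leukocyte markers (bta-miR-146a and bta-miR-155) had an adjusted p under 0.05 over all breeds. So did 0 of 3 erythroid, 0 of 5 mesenchymal, 0 of 5 biliary and 0 of 2 muscle markers, beside 74 of 443 miRNAs tested (16.7%). For KC against Charolais alone, 1 mesenchymal marker, bta-miR-199a-5p, also passed. For KC against Angus, bta-miR-215 and bta-miR-885 split into 1 higher and 1 lower, and the 2 leukocyte markers were both higher. The part of these cell-type markers in the values of the family was not tested.

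Of 16 other miRNAs known for roles in lipid and cholesterol metabolism, 0 met the rule for RFI in Angus and Charolais and 1 in KC, which was bta-miR-223 (log2 fold change 0.69, adjusted p = 0.646). The smallest p-values of the list in Angus and Charolais were those of bta-miR-34a (log2 fold change 0.40, adjusted p = 0.970) and bta-miR-122 (0.32, adjusted p = 0.752). Across the 3 breeds 0 of 16 met the rule. Between breeds, 3 of 16 had an adjusted p under 0.05, a share near that of all miRNAs tested (74 of 443, 16.7%). bta-miR-152, of the miR-148 family, was higher in Charolais (log2 fold change 0.46, adjusted p = 3.4e-05) and KC (0.31, adjusted p = 0.00240) than in Angus. bta-miR-128 was lower in both (-0.33, adjusted p = 0.0196, and -0.27, adjusted p = 0.0222), and bta-miR-370 was lower in KC than in Angus (-0.66, adjusted p = 0.0191). For KC against Angus alone bta-miR-107 also passed. The members of the miR-27 pair had no adjusted p under 0.05 in any of these comparisons.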

How the data were processed

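Small RNA of liver from 60 steers was sequenced. The authors trimmed the reads, removed other small RNAs and counted known bovine miRNAs with mirDeep2, and deposited raw read counts per pair of mature miRNA and precursor, without normalization. The submitters' notes name bcl2fastq 2.17.1.14, FastQC 0.11.7, cutadapt 1.16, Bowtie 1.1.1 and the build UMD3.1. Groups followed the breed and RFI labels.

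Here, counts of a mature miRNA were averaged over its listed precursors and rounded. RFI groups were compared within breeds, across breeds and for interaction, and breeds over 60 steers, with the quasi-likelihood F test of edgeR 4.0.16 (R 4.3.3), TMM normalization, a filter that kept miRNAs reaching 1 CPM in 6 steers or more, and Benjamini-Hochberg adjustment over all miRNAs tested. DESeq2 1.42.0 served as an alternative. Exact permutation tests used 924 relabelings of 12 steers on log2 ratios of count + 0.5, and 100000 resamples were drawn between breeds and for correlations (Python 3.11.15, scipy 1.17.1). The procedures were tested on simulated data. Libraries held 1930859 to 6759381 averaged counts, and the floor of 3 counts covers counting error only, whereas the intervals of fold changes come from the edgeR fits and include the spread between steers.

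The members, lists and tests were chosen with earlier results of these data known. All 7 members are named, with the 3 other miRNAs most like each, and up to 3 of the lipid list by smallest p. Whether p-values reflect more than the spread between these steers is limited by common sires. Alternatives covered the test, normalization, filter, precursors, depth, steers used, sire, and leaving out each steer. Leaving out the bta-mir-10174 listing and TMM before the filter were added after seeing the data. mirDeep2's handling of reads shared by near-identical miRNAs was not given in the sources used here.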

Additional observations from a re-analysis of the deposited data

Results flagged for a closer look

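Of 63 combinations of a member and a group of 6 or 8 steers, 12 had a steer whose distance to the nearest other steer was a large part of the group's range (Dixon's criterion at the 95% level), where chance gives about 1 in 20. In the Charolais steers without an RFI group, replicate 7 was highest for bta-miR-24-3p (1316.4 CPM, the others 377 to 580), bta-miR-23b-3p (846.8 CPM, the others 412 to 521) and bta-miR-23a (215.8 CPM, the others 151 to 178). By share of counts, without TMM, its bta-miR-23a was the lowest of that group (0.0148%). In the KC steers without an RFI group, replicate 2 was highest for bta-miR-24-3p (1057.9 CPM, the others 468 to 739) and bta-miR-23b-3p (922.3 CPM, the others 542 to 651), and replicate 4 was highest for bta-miR-23a (229 CPM, the others 182 to 202). By share of counts, the highest bta-miR-23b-3p of these KC steers was in replicate 3 (0.0735%). In low-RFI Angus, replicate 6 was lowest for bta-miR-27b (22415.6 CPM, the others 28630 to 31800) and bta-miR-27a-3p (475.8 CPM, the others 678 to 730), and it was the shallowest of the 12 Angus libraries with an RFI group, at 2479723 counts. Replicate 4 of that group was highest for bta-miR-23a (181.5 CPM, the others 152 to 157). The Angus steer of replicate 3 without an RFI group was highest for bta-miR-27b (35554.8 CPM, the others 25586 to 28801). That held after TMM alone, as its 88160 of 3696963 counts are a share below the group's median of 2.94%. For the minor arms, high-RFI Angus replicate 2 was highest for bta-miR-24 (3.596 CPM, from 12 counts; the others 1.79 to 2.38) and high-RFI Charolais replicate 2 for bta-miR-27a-5p (3.708 CPM, from 19 counts; the others 0.323 to 1.43).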

How the results depend on the processing

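The Angus count of members meeting the RFI rule was 1 (bta-miR-24), became 2 with bta-miR-27a-5p added under the likelihood-ratio test, with no filter, with 36 steers in one fit and with TMM before the filter, and was 0 with at least 10 counts in every steer, where both minor arms were not tested. With thinned counts, from 1 random draw, it was also 1, but bta-miR-27a-5p in place of bta-miR-24. Leaving out each steer gave 1 to 2 in Angus, 0 to 0 in Charolais, 0 to 0 in KC and 0 to 0 for the RFI ratios. The count of members differing between breeds (1 over all breeds, 1 for KC against each other breed) was 0 without the pairs listed only for KC, 0 in the 24 steers without an RFI group (fewer steers, with log2 fold changes of bta-miR-23b-3p of 0.37 and 0.34) and 0 without the bta-mir-10174 listing. The last setting also took the ratios between breeds from 5 to 0 and turned the log2 ratio of bta-miR-23b-3p to bta-miR-23a from 0.20 to -0.11 (KC against Angus) and from 0.30 to -0.0085 (KC against Charolais). Pairs of members with an adjusted p under 0.05 numbered 5 over 60 steers, 2 with thinned counts, 3 without the 2 farthest steers, 0 in Angus alone, 1 in Charolais alone and 0 in KC alone, where n = 20. Of 869 member values under alternatives other than leaving out a steer, 31 lost and 7 gained a call and 2 reversed. Beside these, 76 fold changes called in neither setting changed sign. Without Angus low-RFI replicate 3 the Angus count over all miRNAs was 5, and in KC it was 11 without low-RFI replicate 2 or 4, 3 without low-RFI replicate 5 or high-RFI replicate 4 and 13 without high-RFI replicate 6. Counts over all miRNAs ranged from 1 to 20 in Angus (9), 1 to 48 in Charolais (7), 3 to 15 in KC (7) and 3 to 21 across breeds (3) for RFI (reported counts in brackets), and for breeds from 14 to 90 over all breeds (74), 0 to 14 for Charolais against Angus (6), 16 to 62 for KC against Angus (48) and 12 to 78 for KC against Charolais (72). The interaction had 1 miRNA by the likelihood-ratio test and 1 by DESeq2. No paired analysis was possible because the labels give steers no number shared between groups. Depth limits the minor arms, where 3 counts are 0.444 to 1.55 CPM by the plain library totals, before TMM.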
